A study of Mus musculus with 64 samples.

Results

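Transcripts of the 7 genes that switch the pyruvate dehydrogenase complex off and on were followed in mouse gastrocnemius muscle. They were the 4 pyruvate dehydrogenase kinases Pdk1, Pdk2, Pdk3, and Pdk4, the 2 catalytic subunits of pyruvate dehydrogenase phosphatase Pdp1 and Pdp2, and 1 regulatory subunit of that phosphatase, Pdpr. The genes were chosen by name, with earlier results of these data known, from 55401 gene identifiers in the count table. All 7 were among the 15241 genes that passed the filter on low counts.

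All 7 are protein-coding, and their positions are given on GRCm38. Pdk1 (ENSMUSG00000006494.11) lies on chr2:71873224-71903858, plus strand, Pdk2 (ENSMUSG00000038967.13) on chr11:95026258-95041354, minus strand, Pdk3 (ENSMUSG00000035232.8) on chrX:93764607-93832201, minus strand, and Pdk4 (ENSMUSG00000019577.6) on chr6:5483351-5496309, minus strand. Pdp1 (ENSMUSG00000049225.14) lies on chr4:11958184-11966452, minus strand, Pdp2 (ENSMUSG00000048371.8) on chr8:104591451-104599026, plus strand, and Pdpr (ENSMUSG00000033624.10) on chr8:111094630-111137074, plus strand. Each value is the count over all exons of the gene.

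The pyruvate dehydrogenase complex converts pyruvate to acetyl-CoA inside mitochondria and so commits carbohydrate carbon to oxidation. The kinases phosphorylate its E1α subunit and inactivate it, and the phosphatases remove the phosphate and restore activity. In skeletal muscle Pdk4 is the member best known to rise with fasting and lipid supply, whereas Pdk1 is known as a target of HIF1α in hypoxic cells.

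Mice of both sexes, 12 to 18 wk old and bred on C57BL/6JBomTac, formed 8 groups of 8 by genotype, time of day, and treatment, with 4 mice of each sex in a group. Both genotypes were homozygous for Hif1a with a floxed exon 2, and HIF1α KO mice (labelled ko) also carried Cre under the human α-skeletal actin promoter, which is active in muscle fibers and leaves other cells of the muscle unrecombined. The fl/fl controls (labelled wt) lacked Cre and shared the floxed alleles. Exercised mice ran for 60 min on a treadmill at zeitgeber time 3 (ZT3, early light phase) or ZT15 (early dark phase), sedentary mice were sham-treated at the same times, and muscle was taken 3 h later. Throughout, ZT3 and ZT15 name the time of the session, and the muscle dates from later in the same phase.

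Of the 64 libraries, 63 were used. The library of mouse 44 (HIF1α KO, ZT3, exercised) held 382 counts in all, 1 of them in Pdk4 and 0 in the other members, so that group had n = 7. The others held 2359780 to 40377963 counts, and 3 held under 5000000. Levels are given as CPM, counts scaled by library size and composition (TMM), and 1 CPM stood for 2.36 counts in the shallowest library and 40.4 in the deepest. All 9 markers of fast and general muscle fibers were detected, and their summed level ranged from 201497 to 336614 CPM. Hif1a itself averaged 36.4 ± 6.31 CPM in fl/fl (SD, n = 32) and 36.4 ± 4.80 CPM in HIF1α KO (SD, n = 31). Counts over the whole gene include the exons outside the deletion, so this level did not check the genotype labels. In bulk muscle, fewer cells of a type and less RNA per cell cannot be told apart.

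Sequence upstream of the members is shown for Pdk4 and Pdp2, whose levels differed by time of day, and for Pdk2, whose highest and lowest libraries differed by 18.1-fold, the highest such ratio of the 7. The sequences are from RefSeq on GRCm38.p6, 5′ to 3′ on the strand of the gene, and end before the first annotated transcript start. Capitals mark CACGTG, the E-box bound by clock and other helix-loop-helix factors.

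Pdk4, chr6:5496310-5496528, minus strand: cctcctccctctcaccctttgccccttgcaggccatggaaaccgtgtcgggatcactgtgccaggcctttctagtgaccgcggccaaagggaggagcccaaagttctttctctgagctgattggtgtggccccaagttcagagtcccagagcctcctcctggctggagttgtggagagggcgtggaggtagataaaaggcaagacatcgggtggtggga

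Pdp2, chr8:104591222-104591450, plus strand: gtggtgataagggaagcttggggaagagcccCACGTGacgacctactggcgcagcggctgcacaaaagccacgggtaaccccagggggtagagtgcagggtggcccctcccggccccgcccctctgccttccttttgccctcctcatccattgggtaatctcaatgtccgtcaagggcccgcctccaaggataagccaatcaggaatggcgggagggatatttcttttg

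Pdk2, chr11:95041372-95041621, minus strand: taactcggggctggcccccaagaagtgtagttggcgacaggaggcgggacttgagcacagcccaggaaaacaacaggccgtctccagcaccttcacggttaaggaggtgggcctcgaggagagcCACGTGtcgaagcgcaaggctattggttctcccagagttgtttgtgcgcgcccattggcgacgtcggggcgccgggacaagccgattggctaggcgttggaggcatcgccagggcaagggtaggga

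A set of 7 motifs was searched on both strands from 250 bases before to 50 after each RefSeq start. CACGTG was found in 1 window each of Pdk2, Pdp2, and Pdpr, beginning 126, 219, and 172 bases before the start, and in 7.15% of all 32851 windows. The hypoxia response core ACGTG, which lies inside CACGTG, occurred outside an E-box only in Pdk3, 53 bases before the start, and was present in 19.6% of all windows. The Pdk4 window held none of the letters searched, which were the PPAR/RXR direct repeat of AGGTCA with 1 base between copies (0.0396% of all windows), its single site AGGTCA (16.3%), the ERR element TCAAGGTCA (0.423%), the FOXO element GTAAACA (3.65%), and the glucocorticoid receptor motif of GNACA and TGTNC with 3 bases between them (0.475%), besides ACGTG and CACGTG. A match is a description of letters in this window, and Pdp1 had no entry in the table.

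Per kilobase of exon, Pdk4 was the most abundant member, with a mean of 167.8 CPM per kb over 63 libraries. Pdk2 (27.9), Pdpr (26.6), Pdp1 (16.4), and Pdk1 (10.6 CPM per kb) followed, and Pdp2 (1.58) and Pdk3 (0.466 CPM per kb) were the lowest. Pdk4 made up 78.3% ± 9.98 (SD, n = 63) of the summed level of the 4 kinases per kb, Pdk2 15.5% ± 9.05, Pdk1 5.91% ± 2.29, and Pdk3 0.263% ± 0.148. Pdp2 made up 9.35% ± 4.32 of the summed level of both catalytic phosphatases per kb. Pdk3 rested on a median of 16 counts per library (2 to 53), so that differences in it were poorly resolved at this depth.

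**Figure D1:**
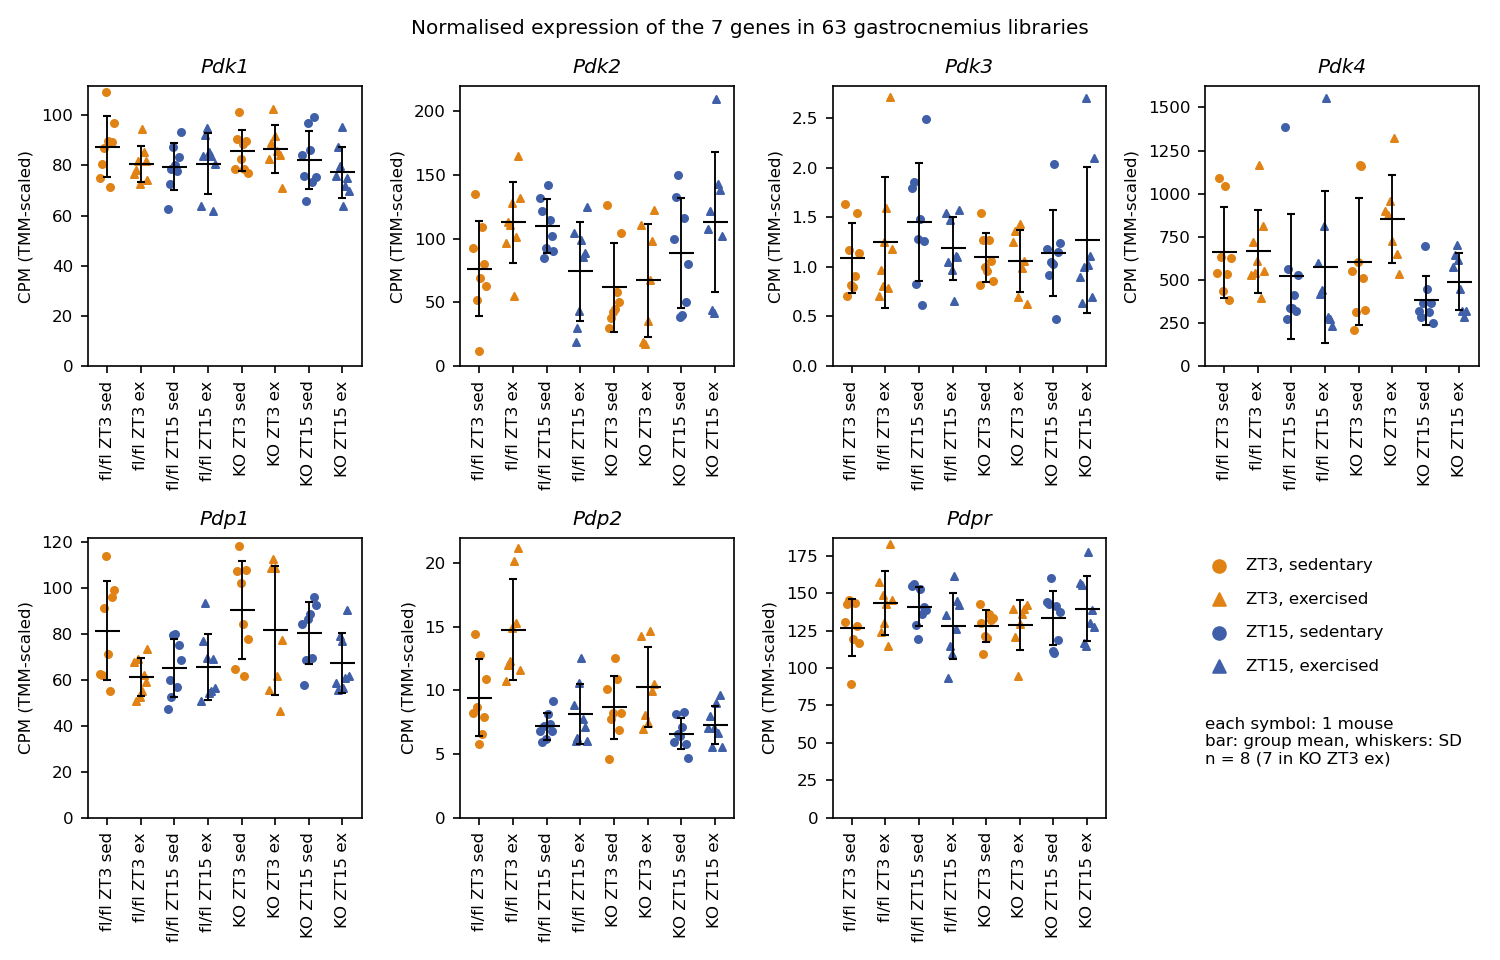
Normalised expression of the 7 genes in CPM (vertical axes, from 0) for each mouse, in 8 groups of genotype, time of day, and treatment (horizontal axes). Bars are group means and whiskers are SD. Pdp2 was highest in exercised fl/fl mice at ZT3, where the mean was 14.8 CPM, and Pdk2 spanned 11.6 to 209.8 CPM with wide overlap of all groups.

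The time-of-day comparison asked how the genes differed between ZT15 and ZT3. Averaged over the 4 combinations of genotype and treatment, 2 of the 7 members passed an adjusted p under 0.1 and both were lower at ZT15, against 3.92% of all tested genes lower and 8.02% called in either direction (edgeR quasi-likelihood test, Benjamini-Hochberg adjustment over 15241 genes). They were the kinase Pdk4 and the phosphatase Pdp2, which act on the complex in opposite directions. Pdk1, Pdk2, Pdk3, Pdp1, and Pdpr did not pass.

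Pdk4 ranged from 210.6 to 1320 CPM at ZT3 (median 610.9, n = 31) and from 232 to 1553 CPM at ZT15 (median 390.03, n = 32). The ranges overlapped almost entirely, and the lower level at ZT15 was a shift of the middle of the distribution. The log2 difference was −0.52 (SE 0.17, 95% CI −0.86 to −0.17, adjusted p = 0.0614 by edgeR), that is, 0.699 times the ZT3 level. The call was lost without mouse 33 (adjusted p = 0.104) or without mouse 35 (adjusted p = 0.105), both sedentary HIF1α KO mice at ZT3, without any filter beyond 1 count (adjusted p = 0.122), and in males alone (log2 difference −0.28, adjusted p = 0.712). In females alone it was −0.75 (adjusted p = 0.056), and the difference between the sexes was not tested. Within the 4 blocks of 16 consecutive mouse numbers the difference of mean log2 CPM was −0.46, 0.095, −1.14, and −0.72 (7 or 8 mice at each time), so that mice 17 to 32 had the opposite sign. Differences within blocks were taken from raw means without adjustment for the other factors, and the groups were not evenly spread over the blocks.

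Pdk4 was lower at ZT15 in each of the 4 strata over both sexes, and none of these differences passed alone. In males alone the sign turned in sedentary (0.14) and exercised (0.25) fl/fl mice. In sedentary fl/fl mice the mean was 519.5 ± 364 CPM at ZT15 and 659.8 ± 264 CPM at ZT3 (log2 difference −0.36, 95% CI −1.04 to 0.32). In exercised fl/fl mice it was 576 ± 440 and 665 ± 239 CPM (−0.23, −0.91 to 0.45). Both intervals included 0, and in both groups the mice at ZT15 held 1 value above every value at ZT3 (1385 and 1553 CPM). In sedentary HIF1α KO mice the means were 380.4 ± 141 and 605 ± 369 CPM (−0.67, −1.35 to 0.0062), and in exercised HIF1α KO mice they were 488 ± 166 and 852 ± 255 CPM (−0.81, −1.51 to −0.11, adjusted p = 0.399). The group order ran from exercised HIF1α KO mice at ZT3 to sedentary HIF1α KO mice at ZT15, and no neighbouring means in that order differed by more than the larger SD.

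Pdp2 ranged from 4.63 to 21.2 CPM at ZT3 (median 10.5, n = 31) and from 4.64 to 12.5 CPM at ZT15 (median 7.02, n = 32). The lowest mice of both times lay together, and no mouse at ZT15 exceeded 12.5 CPM. The log2 difference was −0.52 (SE 0.090, 95% CI −0.70 to −0.34, adjusted p = 3.4e-05 by edgeR), or 0.697 times the ZT3 level, and the call held with each of the 63 libraries left out in turn. In males alone the difference was −0.39 (adjusted p = 0.168). Within the 4 blocks of mouse numbers it was −0.74, −0.032, −0.69, and −0.58 on the log2 CPM scale, near 0 in mice 17 to 32 as for Pdk4.

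Within strata, Pdp2 passed in exercised fl/fl mice, the 1 member called in a comparison where 0.61% of all genes were lower and 1.18% were called. It was 8.13 ± 2.37 CPM at ZT15 (5.99 to 12.5, median 7.42) and 14.8 ± 3.98 CPM at ZT3 (10.7 to 21.2, median 13.6), a log2 difference of −0.81 (SE 0.18, adjusted p = 0.0089 by edgeR). The ranges overlapped only between 10.7 and 12.5 CPM. Mice 19, 26, and 31 of the ZT15 group, and none of the ZT3 group, were among mice 17 to 32. In males alone the log2 difference was −0.63 (adjusted p = 0.707). In sedentary fl/fl, sedentary HIF1α KO, and exercised HIF1α KO mice the log2 differences were −0.40 (95% CI −0.76 to −0.042), −0.39 (−0.75 to −0.038), and −0.47 (−0.83 to −0.10), none of which passed after adjustment. In these 3 strata edgeR called 0 of 7 members, where 1.88%, 0.479%, and 0.663% of all genes were called. Unadjusted p-values under 0.05 were given to 2, 1, and 2 members there, and DESeq2 called 0 members in each. Over all genes in the same strata, 2427, 876, and 1623 had an unadjusted p under 0.05 and DESeq2 called 450, 101, and 190.

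**Figure D2:**
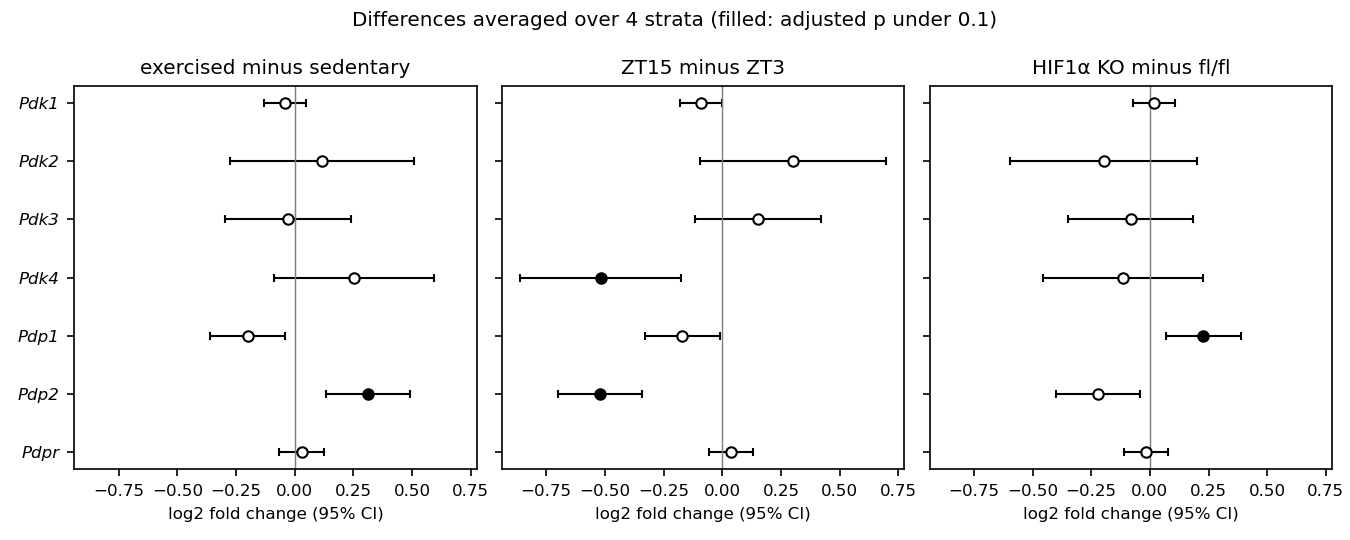
Log2 fold changes of the 7 genes (horizontal axes, points with 95% confidence intervals) for exercise, time of day, and genotype, each averaged over 4 strata. Filled points passed an adjusted p under 0.1. Pdp2 was higher after exercise (0.31) and lower at ZT15 (−0.52), Pdk4 was lower at ZT15 (−0.52), and Pdp1 was higher in HIF1α KO (0.23).

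The exercise comparison asked how the genes differed 3 h after running. Averaged over the 4 strata, 1 of the 7 members was called, Pdp2, which was higher, against 2.06% of all genes higher and 2.84% called in either direction. Pdp2 was 10.1 ± 4.06 CPM in exercised mice (5.51 to 21.2, median 9.03, n = 31) and 7.97 ± 2.32 CPM in sedentary mice (4.63 to 14.4, median 7.53, n = 32), with a log2 difference of 0.31 (SE 0.090, 95% CI 0.13 to 0.49, adjusted p = 0.0435 by edgeR). The ranges overlapped between 5.51 and 14.4 CPM. The call held with each library left out in turn (adjusted p 0.0249 to 0.0928) and did not hold in females alone (0.14, adjusted p = 0.814) or in males alone (0.48, adjusted p = 0.320). Within blocks the difference of mean log2 CPM was 0.42, 0.052, 0.43, and 0.31. These raw differences did not adjust for time of day or genotype, and mice 17 to 32 held none of the exercised fl/fl group at ZT3.

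The widest exercise difference of Pdp2 was in fl/fl mice at ZT3, from 9.41 ± 3.04 CPM sedentary to 14.8 ± 3.98 CPM exercised (log2 difference 0.63, 95% CI 0.29 to 0.98, adjusted p = 0.145 by edgeR and 0.0978 by DESeq2). The exercised fl/fl group at ZT3 stood above the next highest group mean, 10.3 ± 3.15 CPM in exercised HIF1α KO mice at ZT3, by 4.51 CPM, which exceeded the SD of either group. This was the only such step between neighbouring group means for any member. The exercised fl/fl group at ZT3 held mice 2, 6, 12, 13, 36, 48, 50, and 57, and none of mice 17 to 32. In that block Pdp2 averaged 7.10 CPM, against 9.63, 10.5, and 8.91 CPM in the other blocks. Mice 20, 23, and 28 of the exercised HIF1α KO group at ZT3 were in it (6.9, 8.1, and 7.4 CPM). The part of the blocks in this step was not tested. In fl/fl mice at ZT15, HIF1α KO mice at ZT3, and HIF1α KO mice at ZT15 the log2 differences were 0.22 (95% CI −0.14 to 0.59), 0.24 (−0.12 to 0.59), and 0.16 (−0.20 to 0.53). Exercise responses of Pdp2 at ZT15 and ZT3 differed by −0.24 (SE 0.18, 95% CI −0.60 to 0.11), and those of HIF1α KO and fl/fl mice by −0.23 (SE 0.18, 95% CI −0.59 to 0.13). Its time-of-day differences in the genotypes differed by 0.18 (SE 0.18, 95% CI −0.18 to 0.54). None of these interactions was called for Pdp2.

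Pdk4 did not pass for exercise in any stratum. It was 638.4 ± 309 CPM in exercised mice (232 to 1553, median 596.6, n = 31) and 541 ± 304 CPM in sedentary mice (210.6 to 1385, median 440.3, n = 32), and the averaged log2 difference was 0.25 (95% CI −0.090 to 0.59, adjusted p = 0.656). With each library left out in turn it ran from 0.15 (without mouse 37) to 0.35, and none of these values passed. Within strata the log2 differences were 0.0044 in fl/fl at ZT3, 0.14 in fl/fl at ZT15, 0.50 in HIF1α KO at ZT3, and 0.36 in HIF1α KO at ZT15, and both fl/fl values were negative with the block in the model (−0.049 and −0.067).

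**Figure D3:**
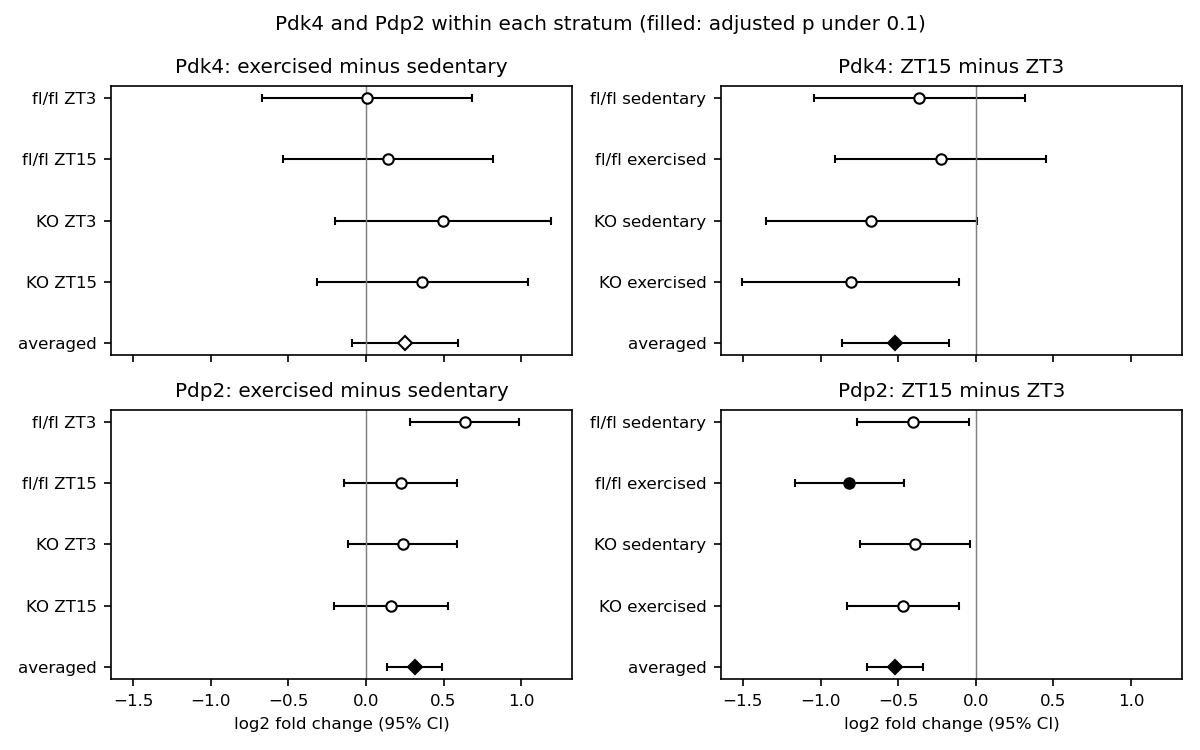
Log2 fold changes of Pdk4 and Pdp2 (horizontal axes, with 95% confidence intervals) for exercise and for time of day within each stratum and averaged over the 4 strata (diamonds). Filled points passed an adjusted p under 0.1. All 4 time-of-day points of both genes lie below 0, and the exercised fl/fl stratum of Pdp2 (−0.81) passed.

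Among the remaining members, the log2 difference after exercise was −0.042 for Pdk1 (95% CI −0.13 to 0.047), 0.12 for Pdk2 (−0.28 to 0.51), −0.029 for Pdk3 (−0.30 to 0.24), and 0.030 for Pdpr (−0.065 to 0.12). Pdp1 was 68.6 ± 17.9 CPM in exercised and 79.4 ± 19.3 CPM in sedentary mice (−0.20, 95% CI −0.36 to −0.042, adjusted p = 0.259), opposite in sign to Pdp2. It was called only with the block of 16 mouse numbers in the model (−0.21, adjusted p = 0.0435) and with the mitochondrial rRNA share in it (−0.20, adjusted p = 0.0778). In the 4 single strata edgeR called 0 of 7 members, where 0.236%, 0.0%, 0.131%, and 0.0591% of all genes were called in fl/fl at ZT3, fl/fl at ZT15, HIF1α KO at ZT3, and HIF1α KO at ZT15. Unadjusted p-values under 0.05 were given to 2, 0, 0, and 0 members there, and DESeq2 called 1, 0, 0, and 0. Over all genes in the same order, 2104, 1406, 772, and 845 had an unadjusted p under 0.05 and DESeq2 called 74, 16, 62, and 34.

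By time of day, the averaged log2 difference was −0.090 for Pdk1 (95% CI −0.18 to −0.000365), 0.30 for Pdk2 (−0.094 to 0.70), 0.15 for Pdk3 (−0.12 to 0.42), −0.17 for Pdp1 (−0.33 to −0.011), and 0.038 for Pdpr (−0.057 to 0.13), with adjusted p from 0.246 to 0.739. Pdk1 and Pdpr had the narrowest intervals, and differences larger than 0.18 in size for Pdk1 or 0.13 for Pdpr lay outside them.

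The genotype comparison asked how HIF1α KO muscle differed from fl/fl. Averaged over time and treatment, 1 of the 7 members was called, Pdp1, which was higher, against 4.68% of all genes higher and 8.26% called in either direction, so that the count of members called was near the background. Pdp1 was 80.0 ± 20.5 CPM in HIF1α KO mice (46.4 to 118, n = 31) and 68.3 ± 16.3 CPM in fl/fl mice (47.4 to 114, n = 32). The ranges overlapped almost fully, and the log2 difference was 0.23 (SE 0.079, 95% CI 0.069 to 0.39, adjusted p = 0.0831 by edgeR). The call was lost in 27 of the 63 fits that left out 1 library, where the difference was between 0.1997 and 0.2238 and the highest adjusted p was 0.157. These were the fits without mouse 5, 6, 7, 8, 10, 13, 14, 17, 20, 21, 23, 24, 25, 27, 28, 29, 30, 37, 38, 39, 43, 45, 46, 49, 52, 54, or 59. It was also lost in females alone (0.15, adjusted p = 0.874), with the block of mouse numbers (0.16, adjusted p = 0.142), and with the mitochondrial rRNA share (0.17, adjusted p = 0.115).

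Pdk1, which is known as a HIF1α target, was 82.9 ± 10.2 CPM in HIF1α KO mice (63.9 to 103, n = 31) and 82.1 ± 10.4 CPM in fl/fl mice (61.9 to 109, n = 32). The log2 difference was 0.017 (95% CI −0.072 to 0.11, adjusted p = 0.873 by edgeR), and the ranges nearly coincided. Over the 8 groups the mean of Pdk1 lay between 77.3 and 87.4 CPM.

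For Pdp2 the averaged genotype difference was −0.22 (95% CI −0.40 to −0.043, adjusted p = 0.142), which passed without mouse 3, 19, 22, 34, or 59 (−0.26 to −0.24, adjusted p 0.0618 to 0.0998). In exercised mice at ZT3 it was −0.51 (95% CI −0.87 to −0.15, adjusted p = 0.154 by edgeR and 0.0993 by DESeq2). Mice 20, 23, and 28 of that HIF1α KO group, and none of the fl/fl group, were among mice 17 to 32. The averaged differences of Pdk2 (−0.20, 95% CI −0.60 to 0.20), Pdk3 (−0.083, −0.35 to 0.19), Pdk4 (−0.12, −0.46 to 0.23), and Pdpr (−0.017, −0.11 to 0.077) did not pass. In the 4 single strata of genotype, edgeR called 0 of 7 members, where 0.4%, 1.43%, 0.0459%, and 0.4% of all genes were called in ZT3 sedentary, ZT3 exercised, ZT15 sedentary, and ZT15 exercised mice. Unadjusted p-values under 0.05 were given to 2 members in exercised mice at ZT3 and to 0 in the others, and DESeq2 called 1 and 0. Over all genes in the 4 strata in that order, 1038, 2648, 1610, and 1129 had an unadjusted p under 0.05. DESeq2 called 89, 483, 16, and 89 of all genes there.

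No interaction of exercise with time, of exercise with genotype, or of time with genotype was called by edgeR for any of the 7 members, and DESeq2 called 0 as well. The unadjusted p was under 0.05 for 0 of 7 members in each. Over all genes edgeR called 0.0% in each of the 3 interactions, where 648, 306, and 648 genes had an unadjusted p under 0.05 and DESeq2 called 0. Differences between strata in the values above are therefore not shown to be differences in response.

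By sex, 1 of the 7 members was called, Pdpr, which was higher in males, against 13.3% of all genes higher and 25.1% called in either direction. The count of members called by sex was thus near the background. Pdpr, the regulatory subunit that lowers the activity of PDP1, was 141 ± 17.6 CPM in males (111 to 183, n = 31) and 127 ± 16.6 CPM in females (89.0 to 155, n = 32), a log2 difference of 0.15 (SE 0.047, adjusted p = 0.0190 by edgeR) with wide overlap. All 7 slow-fiber markers were lower in males, where their summed level was 365 to 1711 CPM (median 771) against 635 to 3871 CPM (median 1301) in females. All 5 tested adipose markers (median log2 difference −0.82) and 2 of 3 fibroblast markers (median −0.22) were also lower in males, and 3 of 5 blood markers were higher (median 0.31). The part of the adipose, fibroblast, and blood markers in the difference of Pdpr was not tested. With the slow-fiber score in the model the difference was 0.12 (adjusted p = 0.226).

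Pdk2 had the highest ratio of highest to lowest CPM among the members (18.1), although Pdk4 had the larger SD relative to its mean, and its variation followed the libraries more than the groups. It ranged from 11.6 to 209.8 CPM over 63 libraries. Group means ran from 61.6 ± 34.7 CPM in sedentary HIF1α KO mice at ZT3 to 113 ± 54.9 CPM in exercised HIF1α KO mice at ZT15, and all 8 ranges overlapped between 84.7 and 122 CPM. Groups accounted for 21.2% of the variance of its log2 CPM, and the 4 blocks of 16 consecutive mouse numbers for 68.6%. Mice 17 to 32 averaged 36.5 ± 17.2 CPM (n = 16), against 118 ± 15.8 CPM in mice 1 to 16 (n = 16), 88.6 ± 43.4 CPM in mice 33 to 48 (n = 15), and 111 ± 26.5 CPM in mice 49 to 64 (n = 16). The labels do not say whether a mouse number marks a day or a preparation.

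The share of counts from the 2 mitochondrial ribosomal RNAs, a measure of library composition, moved with Pdk2. Across 63 libraries Pearson's r of log2 CPM with the log2 share was 0.866 and Spearman's rho 0.807, and r was 0.840 without the 2 libraries farthest from the median share. Of all tested genes, 0.112% had an r as far from 0. The points shared blocks, and within blocks r was 0.089, 0.828, 0.888, and 0.245, so that it was high within mice 17 to 32 and 33 to 48 only. The same r was 0.706 for Pdpr, −0.645 for Pdk1, −0.572 for Pdp1, 0.231 for Pdp2, −0.106 for Pdk4, and 0.078 for Pdk3.

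The time-of-day difference of Pdk2 was positive in 3 of 4 strata, 0.52 in sedentary fl/fl (95% CI −0.26 to 1.31), 0.52 in sedentary HIF1α KO (−0.26 to 1.30), and 0.77 in exercised HIF1α KO mice (−0.053 to 1.59), and −0.61 in exercised fl/fl mice (−1.39 to 0.18), none of which passed. With the mitochondrial rRNA share in the model these were 0.29, 0.026, 0.33, and 0.062, and with the block 0.56, 0.26, 0.64, and −0.12. Averaged over strata, the time-of-day difference was called only with the block (0.33, adjusted p = 0.0721).

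**Figure D4:**
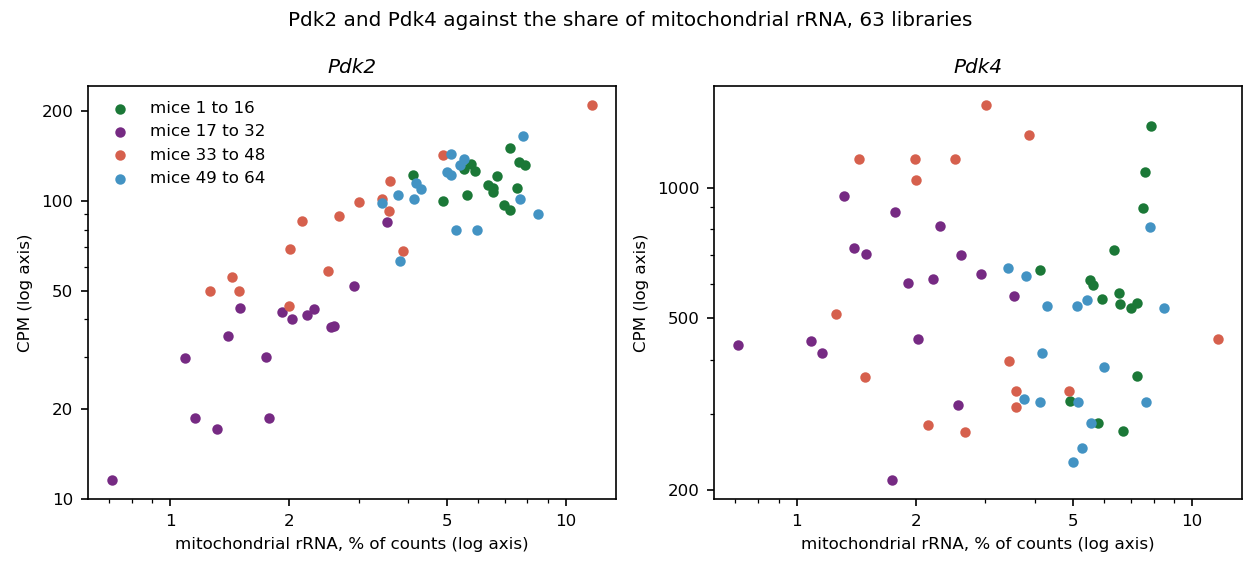
CPM of Pdk2 and of Pdk4 (vertical axes, log scale) against the percentage of counts from mitochondrial rRNA (horizontal axes, log scale) in 63 libraries, colored by block of mouse numbers. Pdk2 was higher in libraries with a higher share (r = 0.866) and was lowest in mice 17 to 32, whereas Pdk4 showed little relation to it (r = −0.106).

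Pdk4 and Pdp2, a kinase and a phosphatase, varied together from mouse to mouse. Across 63 libraries r of their log2 CPM was 0.597 (rho 0.550), and after removal of group and sex means it was 0.578. The libraries share depth, composition, and block, and with the mitochondrial rRNA share also removed r was 0.651. Pdk4 and Pdp1 had an r of −0.206, which was −0.306 after removal of group and sex and −0.453 with the mitochondrial rRNA share also removed. The pair of Pdk2 and Pdpr had an r of 0.799, which was 0.646 after removal of group, sex, and mitochondrial rRNA share.

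**Figure D5:**
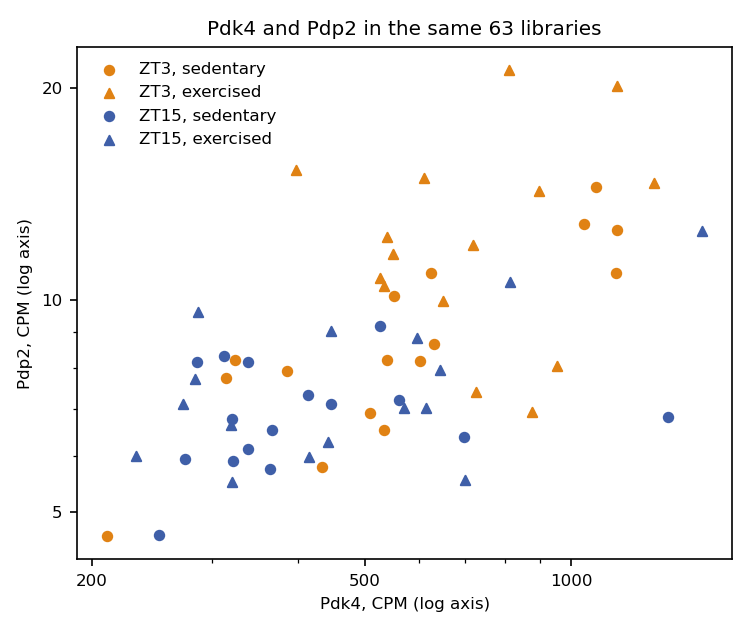
Pdp2 against Pdk4 in CPM (both axes on a log scale), with 1 point for each of 63 mice, colored by time of day and shaped by treatment. Mice with more Pdk4 had more Pdp2 (r = 0.597), and the points at ZT3 reached higher values of Pdp2 (up to 21.2 CPM) than those at ZT15 (up to 12.5 CPM).

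The genes most like Pdk4 across the 63 libraries, among 10577 genes compared, were Tmem140 (r = 0.731), Pank1 (0.728), an enzyme of coenzyme A synthesis, and Acot2 (0.690), a mitochondrial acyl-CoA thioesterase. Those most like Pdp2 were Synj2 (0.794), Akap1 (0.697), and Alpk2 (0.687). For Pdk2 they were Txn2 (0.954), Cdk11b (0.950), and Synpo (0.950), and for Pdpr Kif13a (0.881), Malat1 (0.876), and Mef2a (0.874). For Pdk1 they were Adk (0.850), Slc30a9 (0.812), and Eif4a2 (0.803), for Pdp1 H1f0 (0.797), Ginm1 (0.783), and Prdx3 (0.774), and for Pdk3 Ptbp3 (0.514), Zfp451 (0.503), and Pik3c2a (0.486). With group, sex, and mitochondrial rRNA share removed, r in the same order was 0.774, 0.658, and 0.668 for Pdk4 and 0.581, 0.606, and 0.597 for Pdp2. It was 0.856, 0.853, and 0.808 for Pdk2 and 0.725, 0.653, and 0.673 for Pdpr. For Pdk1 it was 0.705, 0.596, and 0.611, for Pdp1 0.634, 0.620, and 0.544, and for Pdk3 0.558, 0.559, and 0.645. The part of the blocks in these values was not tested.

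Genes around the members were read by lists. The 5 subunits of the complex that the kinases and phosphatases act on had 0 called by exercise and 0 by time (edgeR, with 0 at an unadjusted p under 0.05 and 0 by DESeq2 in both), and 3 of 5 were higher in HIF1α KO, Dlat (log2 difference 0.18, SE 0.042, adjusted p = 0.0049), Pdhx (0.18, SE 0.056, adjusted p = 0.0543), and Pdhb (0.13, SE 0.048, adjusted p = 0.0970). The list median by genotype was 0.13, and the median of all tested genes was −0.0028, with 4.68% of them higher. The calls held under 12 (Dlat), 11 (Pdhx), and 4 (Pdhb) of 13 alternatives, and all 3 were lost in females alone. Of 11 genes of pyruvate transport and its other fates, 3 were higher in HIF1α KO (Gpt2, Me3, and Mpc1, by 0.22, 0.15, and 0.17), with a list median of 0.11, beside 4.68% of all genes higher. The call of Mpc1 held under 4 of 13 alternatives (adjusted p 0.0444 to 0.969), and those of Gpt2 and Me3 under 12 of 13, lost in females alone. Of 5 relatives of the branched-chain ketoacid dehydrogenase, Bckdk, the kinase of that complex, was higher in HIF1α KO (0.15, adjusted p = 0.0289) and Dbt was higher at ZT15 (0.19, adjusted p = 0.00074). The shares of all genes called in either direction were 8.26% by genotype and 8.02% by time.

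Of 17 tested PPAR and fasting response genes, 4 were lower at ZT15 and 0 higher, with a list median of −0.13 beside −0.0034 for all genes. Among all genes 3.92% were lower and 8.02% were called in either direction. The 4 genes included Cpt1a, which brings fatty acids into mitochondria (−0.54, SE 0.086, adjusted p = 5.8e-06), and Plin5, a lipid droplet protein (−0.52, SE 0.12, adjusted p = 0.0021). Their calls held under 13 (Cpt1a) and 12 (Plin5) of 13 alternatives, and that of Plin5 was lost in males alone. By exercise and by genotype edgeR called 0 of the 17, where 3 and 5 had an unadjusted p under 0.05 and DESeq2 called 0 and 1. Over all 15241 genes, 1661 and 3105 had an unadjusted p under 0.05 and DESeq2 called 498 and 1457. Of 16 receptors, coactivators, and factors linked to kinase transcription, 5 were higher after exercise (list median 0.17, beside −0.0037 for all genes, of which 2.06% were higher), led by Ppargc1a (1.22, SE 0.11, adjusted p = 5.0e-12), Ppara (0.37, SE 0.078, adjusted p = 0.0020), and Foxo1 (0.63, SE 0.14, adjusted p = 0.0048). These 3 calls held under 13 (Ppargc1a), 12 (Ppara), and 11 (Foxo1) of 13 alternatives. That of Ppara was lost in males alone, and that of Foxo1 in each sex alone. By time, 2 of the 16 were higher at ZT15, Foxo1 (0.46) and Foxo3 (0.21), and 1 was lower, Hif1a (−0.19, adjusted p = 0.0083), and by genotype 1 was lower, Foxo4 (−0.16, adjusted p = 0.0368). The calls by time held under 11 (Foxo1), 5 (Foxo3), and 11 (Hif1a) of 13 alternatives, and all 3 were lost in each sex alone. That of Foxo4 held under 12 of 13. Among all genes 8.02% were called by time and 8.26% by genotype, so that the count by genotype was near the background.

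Markers of other cell types were read in the same comparisons. In the averaged time comparison edgeR called 0 of 9 muscle fiber, 0 of 7 slow fiber, 0 of 5 adipose, and 0 of 5 blood markers, where 1, 0, 1, and 0 had an unadjusted p under 0.05 and DESeq2 called 0, 0, 1, and 0. The summed adipose markers ranged from 17.6 to 93.4 CPM at ZT3 and from 14.4 to 133 CPM at ZT15. After exercise the slow-fiber markers had a median log2 difference of 0.30 with 0 of 7 called by edgeR. Of the 7, 4 had an unadjusted p under 0.05 and DESeq2 called 0. Over all genes, 1661 by exercise and 2666 by time had an unadjusted p under 0.05, and DESeq2 called 498 and 1354. With the slow-fiber score in the model the exercise difference of Pdp2 was 0.30 (adjusted p = 0.0974). Of 2 satellite cell markers Pax7 was lower after exercise (−0.46, adjusted p = 0.0587) with a list median of −0.28, and Myf5 was higher in HIF1α KO (0.35, adjusted p = 0.0961) with a list median of 0.24. Both lay near the floor, Pax7 at a mean of 1.10 CPM (0.0 to 2.16) and Myf5 at 1.65 CPM (0.0 to 3.09), so their differences were poorly resolved. Of 3 fibroblast markers Pdgfra was higher at ZT15 (0.13, SE 0.041) with a list median of −0.0001, and lower in HIF1α KO (−0.12, adjusted p = 0.0731) with a list median of −0.20. Their part in the differences of the members was not tested.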

How the data were processed

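Poly-A RNA sequencing libraries of gastrocnemius were analysed from a table of read counts per gene. Per the submitters' processing notes, the authors aligned reads to mm10 with STAR and counted them with featureCounts, and the deposited counts carry no normalization. Tool versions, the annotation release, and the strand setting are not given in the sources used here, so Pdk2 and Pdpr, which overlap genes on the other strand (Gm11513 and 9430091E24Rik), may share reads with them. Identifiers were matched without version to GENCODE M21 (55141 of 55401). Groups came from the sample titles. Genes were kept by filterByExpr (minimum count 10), scaled by TMM, and fitted with edgeR 4.0.16 in R 4.3.3 (robust quasi-likelihood, group plus sex, 63 libraries). Adjustment was over 15241 genes within each comparison, with an adjusted p under 0.1 called. Each SE was the log2 fold change over the root of its F value. CPM and log2 CPM (prior count 2) used TMM-scaled sizes. The fit was tested on simulated data.

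The members, lists, and alternatives were chosen with earlier results of these data known. The text names all 7 members, the 3 genes most like each, and at most the 3 smallest p of a list and comparison, except markers, which are named because their count was 5 or fewer. Some results of these lists are not reported here. Alternatives were all 64 libraries, no libraries under 5000000 counts, no sex term, each sex alone, no filter beyond 1 count, at least 10 counts in every library, RLE factors, DESeq2 1.42.0, an adjusted p under 0.05, only the 2 groups compared, and the block of 16 mouse numbers, the mitochondrial rRNA share, or the slow-fiber score (the mean centred log2 CPM of the 7 markers) as a covariate. Leaving out each library and the values within blocks were added after seeing the data. Mice are separate animals, and numbers were not shared between groups.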

Additional observations from a re-analysis of the deposited data

Results flagged for a closer look

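Each member was examined in each of the 8 groups for a mouse that stood apart by Dixon's criterion, 56 sets in all. Chance alone would mark about 1 in 20 sets if the values in each were normally distributed. Skewed values would be marked at another rate, so the count of marks is not read against 1 in 20. Marked values numbered 4. Of these, 3 were high values of Pdk4 at ZT15. Mouse 8 (fl/fl, ZT15, sedentary) had 1385 CPM, where the group median was 376.3 CPM. Mouse 37 (fl/fl, ZT15, exercised) had 1553 CPM, where the group median was 429 CPM. Mouse 25 (HIF1α KO, ZT15, sedentary) had 697.3 CPM, where the group median was 343 CPM. All 3 were males. The fourth was Pdk3 in mouse 50 (fl/fl, ZT3, exercised), at 2.71 CPM.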

How the results depend on the processing

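No paired analysis was possible because each mouse number in the labels belongs to 1 mouse and the groups compared share none. With the 16-mouse block added to the model, which is no pairing, 2 members passed by exercise (Pdp2 and Pdp1), 0 by genotype, and 3 by sex, and 669 genes passed by exercise and 2030 by time. The signs turned for Pdk1 (−0.015) and Pdpr (0.018) by genotype and for Pdk4 by exercise in fl/fl at ZT3 (−0.049) and at ZT15 (−0.067). With the mitochondrial rRNA share 2 members passed by exercise, 0 by genotype, and 3 by sex, and 119 genes passed by time in exercised fl/fl mice. The signs turned for Pdk1 (−0.015) and Pdpr (0.012) by genotype and for Pdk2 by time in exercised fl/fl mice (0.062). With the slow-fiber score 0 members and 2277 genes passed by sex. Over all alternatives, 17 to 669 genes passed by exercise, 307 to 2030 by time, 113 to 2261 by genotype, and 2277 to 4645 by sex. In the main fit 433, 1222, 1259, and 3821 of 15241 genes passed in the same order, and the counts of members are to be read beside these.

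In females alone 0 members passed by exercise and 0 by genotype, and 462, 113, and 36 genes passed by time, by genotype, and by time in exercised fl/fl mice. Signs turned by exercise for Pdk3 (0.18), Pdpr (−0.0079), Pdk4 in fl/fl at ZT3 (−0.14) and ZT15 (−0.088), and Pdp2 in HIF1α KO at ZT15 (−0.11), and by genotype for Pdk1 (−0.060), Pdk2 (0.15), Pdk3 (0.091), and Pdpr (0.081). In males alone 0 members passed by exercise, 0 by time, 0 by time in exercised fl/fl mice, and 2 by genotype (Pdp1 and Pdk2), and 17, 307, 2261, and 7 genes passed by exercise, by time, by genotype, and by time in exercised fl/fl mice. Signs turned by time for Pdk3 (−0.078) and for Pdk4 in sedentary (0.14) and exercised (0.25) fl/fl mice. Each sex alone holds fewer libraries.

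At an adjusted p under 0.05, 1 member passed by time and 0 by genotype, and 695 genes passed by genotype and 105 by time in exercised fl/fl mice. Without a filter beyond 1 count, 1 member passed by time and 0 by genotype, 778 and 104 genes passed by genotype and by time in exercised fl/fl mice, and Pdk4 by exercise in fl/fl at ZT3 was −0.014. With at least 10 counts in every library 2 members passed by genotype and 2 by sex. Without the sex term 109 genes passed by time in exercised fl/fl mice. DESeq2 called 1 member by exercise in fl/fl at ZT3 and 1 by genotype in exercised mice at ZT3 (Pdp2 in both), and 273 genes by time in exercised fl/fl mice. Leaving out each library gave 1 to 1 members by exercise, 1 to 2 by time, and 0 to 2 by genotype, and Pdk3 by exercise ran from −0.098 to 0.024, positive without mouse 2, 29, or 63. Except where a value or the number of samples or genes shows it, the cause was not tested. Of the alternatives' single values, 57 no longer passed, 7 newly passed, 20 changed sign, and the others kept their direction and side of the threshold. Pdhb and Mpc1 by genotype and Foxo3 by time lost their calls under most alternatives. Depth limited Pdk3, which had 2 to 53 counts per library.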

Other observations

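Genes beside the members were counted by genotype. Within 10 Mb of Pdk1 on chromosome 2, 12 of 96 tested genes (12.5%) were called between HIF1α KO and fl/fl mice, 9 of them lower in HIF1α KO. Within 10 Mb of Pdk3 on chromosome X the count was 9 of 63 (14.3%), 8 of them lower. The share was 8.89% near Pdk4, 9.68% near Pdp1, 6.43% near Pdk2, 5.33% near Pdp2, and 7.55% near Pdpr, beside 8.26% of all tested genes. Windows of Pdp2 and Pdpr on chromosome 8 share genes, and no test was made of these shares.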
